A study of Mus musculus with 16 samples.

Results

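The 10 genes described here encode subunits of heterotrimeric G proteins: the alpha subunit genes Gnai1, Gnai2, Gnai3, Gnaq, Gna13, Gna15 and Gnas, the beta subunit genes Gnb1 and Gnb2, and the gamma subunit gene Gng2. They were picked by symbol from the 23420 rows of each of 2 tables that compare blood progenitors labelled Tet2KO with progenitors labelled WT, and all 10 symbols were found in both. Gnai3 was included because of its change in one of these tables, so the fold changes of the 10 genes are given as a description of what chose them and not as a separate test. The mice were 40 weeks old, and RNA was taken from progenitors sorted from their bone marrow. Both gates kept cells that carry Kit and lack lineage markers and CD150. Multipotent progenitors (MPP) carried Sca1 and CD48, and granulocyte-monocyte progenitors (GMP) carried CD16/32 and lacked Sca1. The label WT stands for the genotype Tet2fl/fl, a floxed allele, and the label Tet2KO for Tet2-/-, with 4 mice of each label per population. The driver of the deletion is not given in the sources used here. In each genotype 3 mice gave both populations, so the populations are not independent of each other.

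A heterotrimeric G protein passes a signal from a receptor with 7 membrane spans to enzymes inside the cell. An activated receptor makes the alpha subunit exchange GDP for GTP, the alpha subunit parts from the beta-gamma pair, and both act on their targets until the alpha subunit hydrolyses its GTP. Alpha subunits of the Gi family inhibit adenylyl cyclase and carry the signals of most chemokine receptors. The Gs alpha subunit stimulates the cyclase, Gq family members activate phospholipase C beta, and G12 family members act on RhoA through guanine nucleotide exchange factors. In blood cells these pathways are known for steering migration, retention in the marrow and the response to prostaglandins and nucleotides.

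In GMP labelled Tet2KO the transcript of Gnai3 fell by 25.8% against WT, while no other of the 10 genes passed the authors' threshold in either population. The promoter region of Gnai3 is shown because the series concerns recruitment of transcription factors where TET2 binds, and because this window holds CACGTG, the E-box sequence bound by many basic helix-loop-helix factors. RefSeq promoter windows (GRCm38.p6, the assembly of mm10) matched 9 of the 10 genes in 12 windows, of which 4 belong to Gnas. Gnai2 had no matched window, so its promoter was not searched. The 250 bases before the start were searched. The windows of 3 genes held CACGTG, a palindrome that reads the same on both strands, and those of Gnai3 and Gna13 are printed to set the gene that fell beside one that did not pass. Both are written 5′ to 3′ on the strand of the gene, with the E-box in capitals.
Gnai3, chr3:108146153-108146402, minus strand: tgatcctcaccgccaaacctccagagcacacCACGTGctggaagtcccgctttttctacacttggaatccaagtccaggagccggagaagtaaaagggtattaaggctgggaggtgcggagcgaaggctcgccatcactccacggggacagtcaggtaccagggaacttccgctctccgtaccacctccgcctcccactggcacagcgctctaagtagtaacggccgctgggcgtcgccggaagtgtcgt
Gna13, chr11:109362544-109362793, plus strand: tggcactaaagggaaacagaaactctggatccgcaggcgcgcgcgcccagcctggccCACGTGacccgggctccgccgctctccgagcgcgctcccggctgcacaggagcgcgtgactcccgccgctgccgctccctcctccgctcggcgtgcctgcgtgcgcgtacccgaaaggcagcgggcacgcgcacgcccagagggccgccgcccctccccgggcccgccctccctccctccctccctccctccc
The E-box began 219 bases before the start in Gnai3, 193 in Gna13 and 118 in Gnai1. Of all 32851 windows of this length 6.02% held CACGTG, and 8.46% of the 10914 windows of genes tested in GMP. The Gnai3 window held 18 CpG dinucleotides at a GC content of 59.6%, against a median of 16 and 59.6% over the windows of genes tested in GMP. Gna13 had 33 CpG and Gnaq 37, whereas Gna15 had 4 and Gng2 had 3. CCGGAAG, the core of many ETS factor sites, was found on either strand in 6.91% of all windows. Among the 9 genes with a window it was in that of Gnai3. The cAMP response element TGACGTCA was in none of the 12 windows, against 1.55% of all windows. A match is a description of the letters and does not show binding.

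The tables hold no values per library. Each gives, per gene, the mean normalized count over the 8 libraries of its population, the log2 fold change (Tet2KO over WT) and its standard error (SE), all made by the authors with DESeq2. Genes with a mean under 10 have the status Low, genes with an extreme library the status Outlier, and neither has an adjusted p. The number of genes tested was 11859 in MPP and 11503 in GMP, and 73 (0.616%) and 456 (3.96%) of them had an adjusted p under 0.05 in the authors' deposited tables, which is what a called gene means below. Of the tested genes in MPP 0.346% were called higher and 0.27% lower, and in GMP 1.75% higher and 2.22% lower. Tet2 itself had a log2 fold change of 0.44 in MPP and 0.35 in GMP in the authors' deposited tables, higher in the libraries labelled Tet2KO. This value for the whole gene does not check a deletion of a part of it, so each direction rests on the labels. Kit was high in both populations, with means of 7542 in MPP and 6397 in GMP. The Sca1 gene Ly6a had means of 266 and 19.5, the CD16 gene Fcgr3 of 19.3 and 525, and Mpo of 23699 and 200049, in the order MPP and GMP. The lymphocyte markers Cd79a and Cd3e had means of at most 2.95. Markers of other cells were not all low. Itgam, the gene of the lineage antigen CD11b, had means of 841 and 572, the mast cell gene Cpa3 of 510 and 3549, the erythroid gene Klf1 of 96.1 and 132, and the megakaryocyte gene Itga2b of 272 and 279, while the granulocyte genes S100a8 and S100a9 stayed at or below 29.2. Itgam, Cpa3 and Klf1 had the status Outlier in both populations, and Mpo and S100a9 in MPP. Those means may therefore rest on an extreme library.

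Of the 10 genes, 8 were tested in MPP and 9 in GMP. Gnai1 had the status Low in both tables, and Gng2 had the status Outlier in MPP. None of the 8 genes tested in MPP was called, and 1 of 9 in GMP, Gnai3, was called and lower, in tables where 0.616% and 3.96% of all tested genes were called (in GMP 1.75% higher and 2.22% lower). Since these contrasts chose the genes, nothing is read from that count. The median log2 fold change of the tested members was -0.07 in MPP (2 above 0 and 6 below) and -0.03 in GMP (2 above and 7 below), where the medians over all tested genes were -0.0038 and 0.00025.

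**Figure D1:**
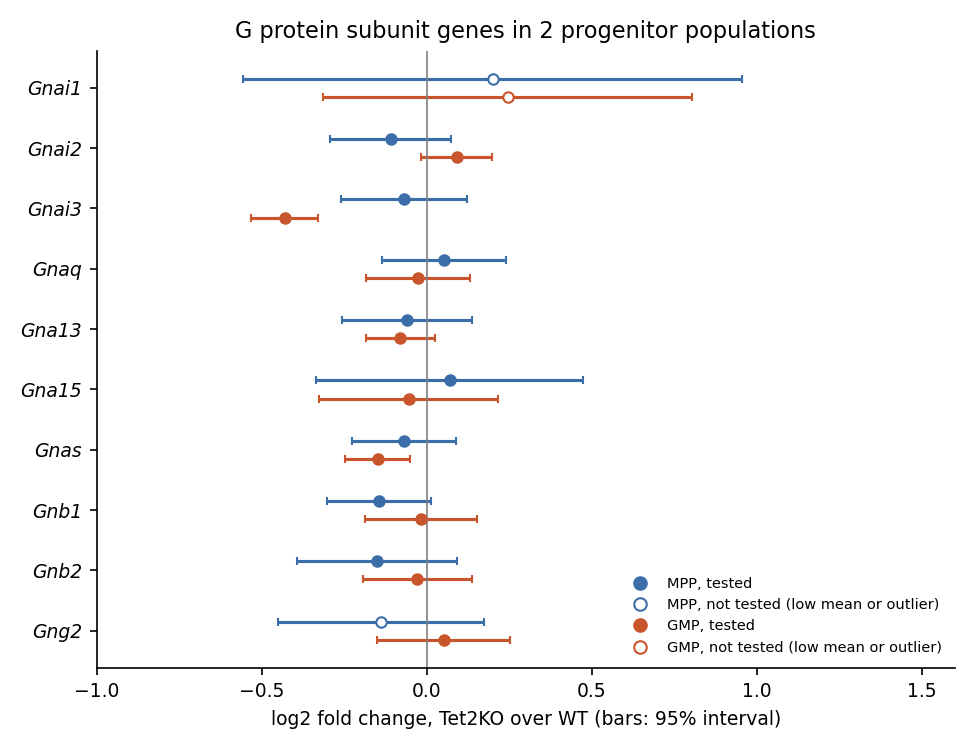
Log2 fold change of Tet2KO over WT for the 10 genes in MPP (blue) and GMP (orange), with 95% intervals from the authors' SEs and open points for genes without an adjusted p. The interval of Gnai3 runs from -0.53 to -0.33 in GMP and from -0.26 to 0.12 in MPP.

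Gnai3 (ENSMUSG00000000001.4, chromosome 3, 108107280 to 108146146, minus strand, mm10) encodes an inhibitory alpha subunit found in nearly all cell types. In GMP its mean was 3405, which ranked it 552nd in the table. Its log2 fold change there was -0.43 (SE 0.0518, DESeq2 adjusted p = 3.91e-13, 4 libraries against 4) in the authors' deposited table. This is a fold of 0.742, with a 95% interval of 0.692 to 0.796, so that the level fell by 25.8%. With equal numbers of libraries the mean and the fold imply about 3910 normalized counts in WT and 2901 in Tet2KO. How single mice spread around these means cannot be read from the tables. In bulk RNA of a sorted population, fewer cells that express a gene and less of its RNA per cell cannot be told apart. Of the sort and cell type markers, 3 were called in GMP as well: the mast cell protease gene Cma1 at -1.71 (DESeq2 adjusted p = 9.45e-05), the primary granule gene Ctsg at -0.31 (0.00434) and the platelet gene Pf4 at 1.35 (0.0062), as log2 fold changes with adjusted p in the authors' deposited table. Cma1 and Pf4 had low means in GMP, 18.7 and 37.2. Mpo (0.08) and Itga2b (0.11) were not called in GMP in the authors' deposited table. Cpa3 (-0.28) and Elane (-0.08) had the status Outlier there and no adjusted p. Over all genes tested in GMP 3.96% were called. In MPP none of the tested markers was called. Flt3, Mpo, Elane, Ctsg, Itgam, S100a9, Klf1 and Cpa3 had the status Outlier in MPP, and Cd79a, Cd3e and Cma1 the status Low. Those genes had no adjusted p in MPP and could not be called. The part of these markers in the value of Gnai3 was not tested. Gnai3 had the third smallest p of the table. Among 2382 tested GMP genes with a mean of at least 1000, 5 had a lower log2 fold change, and the median absolute log2 fold change of that group was 0.08.

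In MPP the same gene had a mean of 2112 and a log2 fold change of -0.07 (SE 0.0973, DESeq2 adjusted p = 0.896) in the authors' deposited table. Its 95% interval ran from -0.26 to 0.12. The implied means were 2162 in WT and 2062 in Tet2KO. GMP minus MPP, the difference of the log2 fold changes was -0.36 with a 95% interval of -0.58 to -0.15, under the assumption that the 2 tables have independent errors, which the shared mice do not meet. Since Gnai3 was chosen on these tables, the difference is given without a test.

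**Figure D2:**
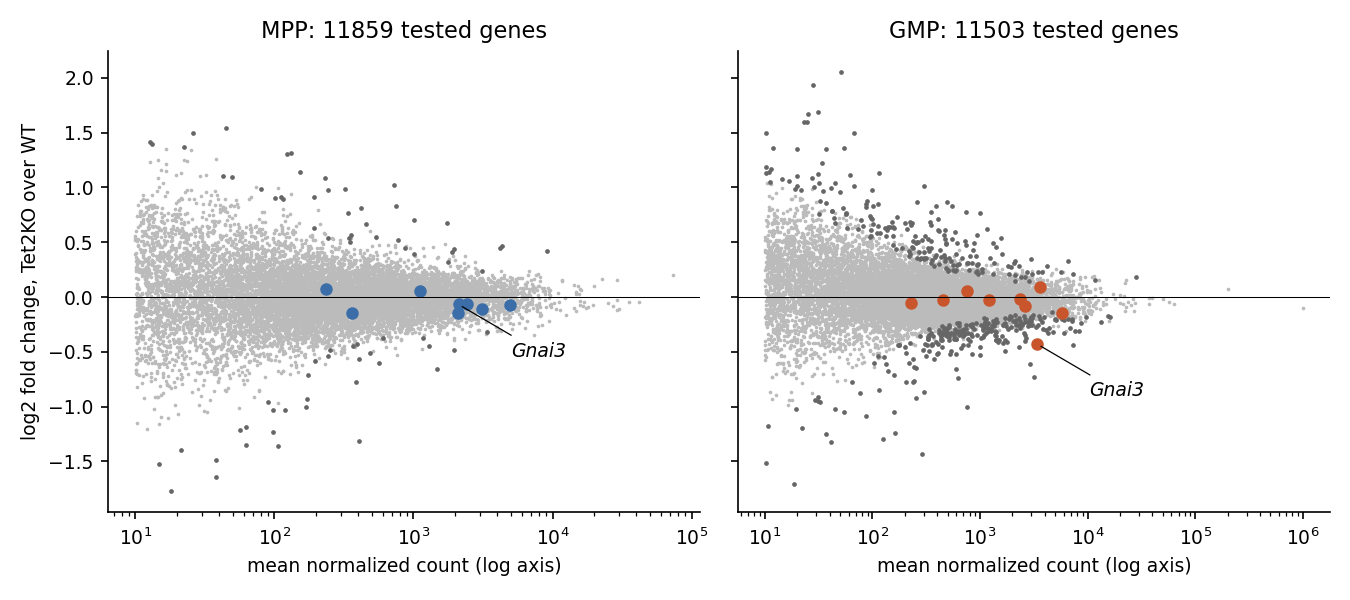
Log2 fold change against the mean normalized count (log axis) for all tested genes in MPP (left) and GMP (right), with called genes in dark grey and the tested members in colour. In GMP Gnai3 sits at -0.43 and a mean of 3405, below the other 8 tested members, which lie between -0.15 and 0.09.

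Gnai2 (chromosome 9, 107614125 to 107635367, minus strand), the other abundant Gi alpha gene of blood cells, did not pass in either population. Its log2 fold change was -0.11 (SE 0.0933, mean 3102) in MPP and 0.09 (SE 0.0545, mean 3641) in GMP in the authors' deposited tables. The GMP interval of -0.02 to 0.20 lies wholly above that of Gnai3. Gnai1, the third Gi alpha gene, was close to undetected, with means of 8.43 in MPP and 1.34 in GMP.

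Levels can be set between genes only per length. Each mean was divided by the sum of means of its table and by the length of all exons of the gene (union of GENCODE M21 exons), which gives ppm per kb, where ppm is the share of the sum in parts per 1000000. Both tables were normalized separately, so levels across them are set side by side without a test. Gnai2 stood at 87.0 ppm per kb in MPP and 87.3 in GMP, and Gnai3 at 68.6 and 94.6. The Gnai1 level was 0.285 in MPP and 0.0389 in GMP. Gnai2 was thus 1.27 times Gnai3 in MPP and 0.923 times in GMP, but 2.16 and 1.57 times when the longest transcript is taken as the length, so the order of both genes in GMP depends on the length used. From the implied group means in GMP with exon unions, Gnai3 made up 56.2% of the summed Gi alpha level in WT and 47.2% in Tet2KO. With longest transcripts these shares were 42.9% and 34.4%. The summed level in GMP changed by -11.6% with exon unions and by -7.36% with longest transcripts. For MPP these changes of the summed level were -6.09% and -6.43%. In MPP the corresponding shares of Gnai3 were 43.7% and 44.4% with exon unions, and 31.3% and 31.9% with longest transcripts. These shares are descriptions, since no error can be given for a group mean.

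Among the other alpha subunits, Gnas (chromosome 2, 174284320 to 174346744, plus strand) encodes the stimulatory alpha subunit and several imprinted transcripts from alternative promoters. It had the highest mean of the 10 genes, 4960 in MPP and 5746 in GMP. Its log2 fold change in GMP was -0.15 (SE 0.0507, DESeq2 adjusted p = 0.0675) in the authors' deposited table, a value that did not pass although its unadjusted 95% interval, -0.25 to -0.05, lies below 0. In MPP the value was -0.07 (SE 0.0802) in the authors' deposited table. One number per gene does not separate the promoters of Gnas. The antisense gene Nespas, which overlaps it, had means of 2.78 in MPP and 4.68 in GMP.

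Gnaq, the Gq alpha gene that activates phospholipase C beta, had log2 fold changes of 0.05 (SE 0.0953) in MPP and -0.03 (SE 0.0803) in GMP in the authors' deposited tables. An antisense pseudogene, E030024N20Rik, overlaps Gnaq and had means of 188 in MPP and 137 in GMP, against 1111 and 1201 for Gnaq, with log2 fold changes of 0.19 and 0.24 in the authors' deposited tables. Since the use of strand in counting is not stated, reads of overlapping genes cannot be told apart in Gnaq, Gna13 and Gnas. Gna15, a Gq family gene expressed mainly in blood cells that couples to a wide range of receptors, had 0.07 (SE 0.206) and -0.05 (SE 0.139) in the authors' deposited tables, at means of 234 and 228. Its wider intervals, -0.33 to 0.47 in MPP and -0.33 to 0.22 in GMP, leave room for changes of either sign. Gna13, which signals to RhoA, had -0.06 (SE 0.100) and -0.08 (SE 0.0529) in the authors' deposited tables, at means of 2434 and 2615. An antisense gene with means of 48.9 and 39.2 overlaps Gna13.

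The beta subunit genes Gnb1 and Gnb2 did not pass in either population. Their 95% intervals in MPP, -0.30 to 0.01 for Gnb1 and -0.39 to 0.09 for Gnb2, leave room for a fall. Gnb1 had log2 fold changes of -0.15 (SE 0.0807) in MPP and -0.02 (SE 0.0871) in GMP, and Gnb2 of -0.15 (SE 0.124) and -0.03 (SE 0.0839), in the authors' deposited tables. Gnb1 was the more abundant, at 51.9 and 50.1 ppm per kb against 11.2 and 12.0 for Gnb2. Gng2, a gamma subunit gene that pairs with both, had a mean of 1215 in MPP and 754 in GMP. Per length this was 29.3 and 15.6 ppm per kb, a ratio of 0.531 in GMP over MPP. The outlier status in MPP marks an extreme library, so that mean and this ratio may rest on that library. In the authors' deposited tables the log2 fold change of Gng2 was -0.14 (SE 0.159, no p because of the outlier status) in MPP and 0.05 (SE 0.103) in GMP.

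Per kilobase the members ran in MPP from Gnai2 through Gnai3, Gnb1, Gnas, Gna13, Gng2, Gnaq, Gna15 and Gnb2 down to Gnai1. In GMP Gnai3 stood first and Gnai2 second. No spread over libraries is available for these levels, so whether neighbours in this order differ cannot be said. With the longest transcript as length Gnas stood at 133 in MPP and 132 in GMP and was second in both, after Gnai2 at 148 and 149. As a share of the summed means, the GMP level over the MPP level was between 0.834 and 1.07 for Gnai2, Gnaq, Gna13, Gna15, Gnas, Gnb1 and Gnb2, and 1.38 for Gnai3.

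**Figure D3:**
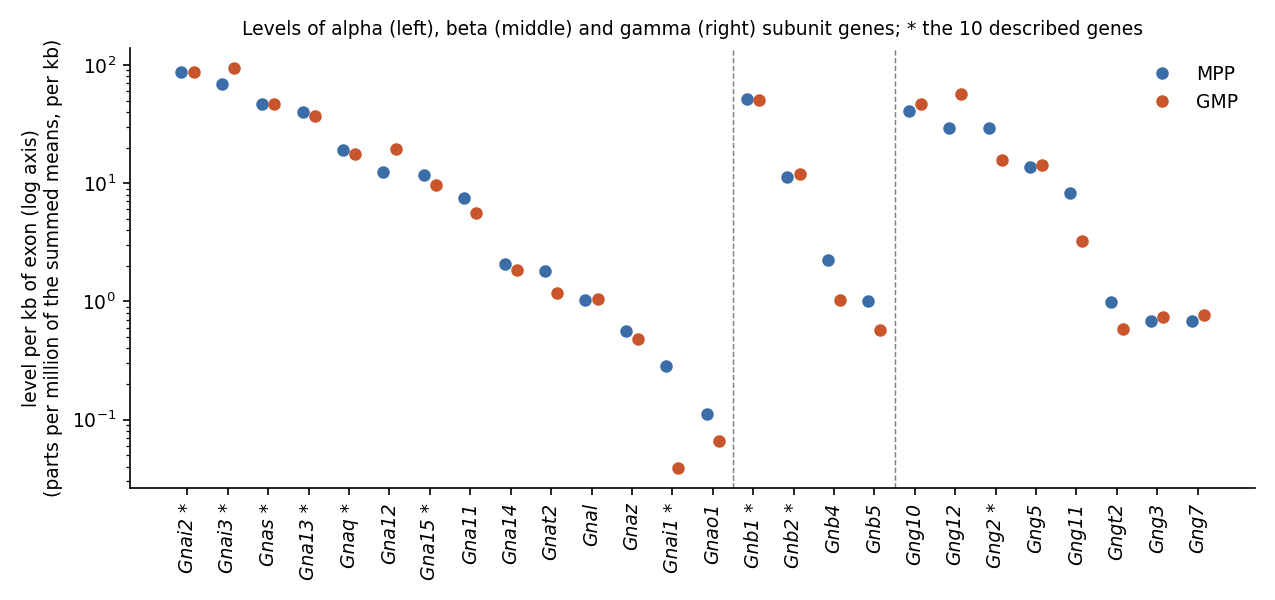
Level per kb of exon (log axis, ppm of the summed means per kb) of alpha, beta and gamma subunit genes whose mean reached 10 in either table, in MPP (blue) and GMP (orange), with the members starred; Gnai1 is shown as a member below that mean. Gnai2, Gnai3, Gnas and Gna13 lead the alpha genes, and Gng12 and Gng10 have higher levels in GMP than Gng2.

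Beyond the 10 genes, 23 other subunit genes were in the tables, of which 16 were tested in MPP and 15 in GMP. None was called in MPP and 1 (6.67%) in GMP, where 0.616% and 3.96% of all tested genes were called. That gene was Gng10, a widely expressed gamma subunit gene (chromosome 4, 59035088 to 59041903, plus strand), which fell by 0.47 on the log2 scale (SE 0.115, DESeq2 adjusted p = 0.00386) in GMP in the authors' deposited table. In MPP its value was of similar size, -0.49, but did not pass (SE 0.153, DESeq2 adjusted p = 0.118) in the authors' deposited table. Gng10 stood at 41.0 ppm per kb in MPP and 46.4 in GMP, above Gng2 in both. The most abundant other gamma gene by mean, Gng12, had log2 fold changes of 0.07 and -0.02 in the authors' deposited tables. Of the other alpha and beta genes, those with the highest means were Gna12, a G12 family gene (0.25 and -0.11), and Gnb4 (-0.05 and -0.32), none of these log2 fold changes passing in the authors' deposited tables.

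The signalling partners were taken from 13 lists, which include the other subunits and hold 120 genes found in the tables. In MPP 82 of them were tested, 2 were called, both lower, which is 2.44% against 0.616% of all tested genes. In GMP 85 were tested and 8 called, 5 higher and 3 lower, which is 9.41% against 3.96%. The lists were put together with earlier results of these data known, several called genes among them, so these shares are no independent evidence. When the null was widened to the spread of all tested genes, P2ry14 in both populations and Rgs7bp in GMP kept their calls, and the calls of Ccr9, Gng10, Prkar1a, Plcb1, Ptger2, Adora2a and F2r were lost; at an adjusted p of 0.01 those of Ccr9, Ptger2 and Adora2a were lost. The median log2 fold change of the tested list genes was 0.01 in MPP and 0.03 in GMP.

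**Figure D4:**
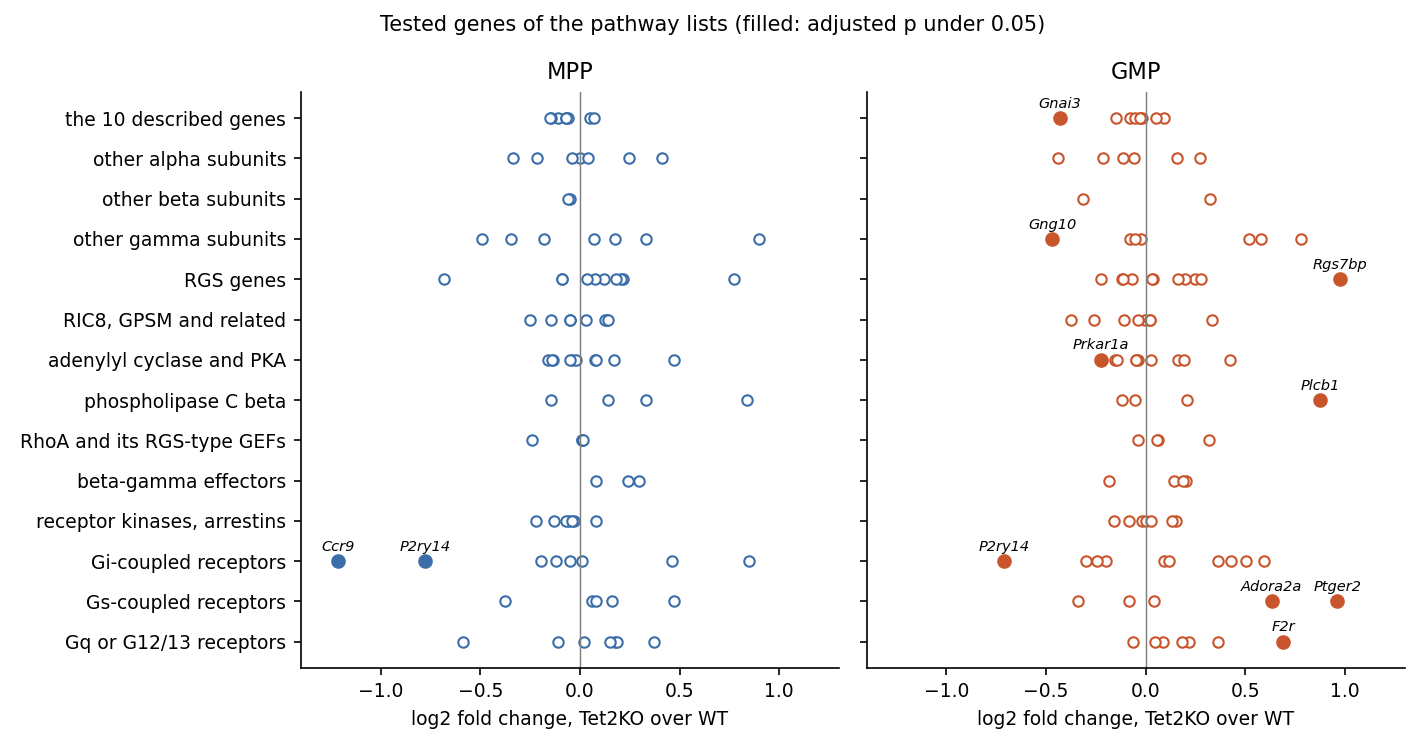
Log2 fold change of Tet2KO over WT for each tested gene of the members and the 13 lists, in MPP (left) and GMP (right), with filled and named points for genes called at an adjusted p under 0.05. In GMP the called genes lie on both sides of 0, from P2ry14 at -0.71 to Rgs7bp at 0.98.

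Receptors held 6 of these calls over both populations, where 0.616% of all tested genes were called in MPP and 3.96% in GMP. P2ry14, a Gi-coupled receptor for nucleotide sugars, was lower in both, at -0.78 in MPP (SE 0.163) and at -0.71 in GMP (SE 0.145) in the authors' deposited tables. Ccr9, a Gi-coupled chemokine receptor gene of lymphoid homing, was lower in MPP at -1.22 (SE 0.320, DESeq2 adjusted p = 0.0299) and did not pass in GMP at 0.59 (SE 0.336), where its mean was 16.4, in the authors' deposited tables. Cxcr4, the Gi-coupled receptor that holds progenitors in the marrow and the receptor of highest mean in its list, had -0.12 and 0.09, which did not pass in the authors' deposited tables. Of 5 tested genes of Gs-coupled receptors 2 were called in GMP, both higher: the prostaglandin E2 receptor gene Ptger2 at 0.96 (SE 0.292) and the adenosine receptor gene Adora2a at 0.63 (SE 0.202) in the authors' deposited table. That is 40% of a short list put together with results known, against 1.75% of all tested genes called higher. Both calls were lost at an adjusted p of 0.01. F2r, the thrombin receptor gene, was higher in GMP at 0.69 (SE 0.155) in the authors' deposited table, 1 of 7 tested in the list of receptors that couple to Gq or G12/13.

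Regulators and effectors held 3 calls, all in GMP, where 3.96% of all tested genes were called. Rgs7bp, which anchors a class of RGS proteins to the membrane, rose by 0.98 on the log2 scale (SE 0.177, DESeq2 adjusted p = 1.22e-05) in the authors' deposited table. It was the 1 called gene of 11 tested in the list of RGS genes and genes of their binding proteins. RGS proteins speed GTP hydrolysis by alpha subunits, and no tested gene of an RGS protein was called in GMP. Rgs7 itself, a partner of Rgs7bp, had a mean of 1.25 in GMP, with the status Low. Plcb1, a phospholipase C beta gene, rose by 0.87 (SE 0.221, DESeq2 adjusted p = 0.00534) at a mean of 89.0 in the authors' deposited table, while Plcb2, the most abundant of the 4 with a mean of 3402, had -0.05. Prkar1a, the regulatory subunit gene of the cAMP-dependent protein kinase, fell by 0.22 (SE 0.0550, DESeq2 adjusted p = 0.00378) in the authors' deposited table. It was 1 of 10 genes tested for adenylyl cyclase and its kinase, and the others were not called.

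In the other 4 lists none of the tested genes was called, against 0.616% of all tested genes in MPP and 3.96% in GMP. They cover the chaperones and guanine nucleotide regulators of alpha subunits (8 tested in each table), RhoA and its exchange factors (4 tested), the effectors of beta-gamma (3 in MPP and 4 in GMP), and receptor kinases and arrestins (7 tested). Their members of highest mean were Ccdc88a (0.13 in MPP and 0.02 in GMP), Rhoa (-0.24 and -0.04), Pik3cg (-0.0007 with outlier status and -0.18) and Arrb1 (-0.13 and 0.03) in the authors' deposited tables. Of 79 list genes tested in both tables, none had a log2 fold change that differed between GMP and MPP after Benjamini-Hochberg adjustment over 11050 genes, of which 7 (0.0633%) passed. The smallest adjusted p was 0.0952, that of Ccr9. This test takes the errors of the tables as independent, although 3 mice per genotype gave both populations. With errors correlated at 0.402 instead, Ccr9 (difference 1.81, adjusted p = 0.000601) and Cx3cr1 (difference -1.15, adjusted p = 0.0392) passed among the list genes, and 84 genes in all, so the count of 0 rests on that assumption.

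The genes whose pair of log2 fold changes lay nearest to that of Gnai3 over the 2 populations were Irak1bp1, Gas2, Pigyl, Auts2 and Cbr4, out of 9101 other genes whose mean reached 50 in MPP and in GMP. Their Euclidean distances on the log2 scale were 0.011 to 0.031. Their means in GMP were between 50.3 and 139, and their SEs there were between 0.151 and 0.239, against 0.0518 for Gnai3. None of these 5 was called in GMP, where their adjusted p ran from 0.0702 to 0.346 in the authors' deposited table, so the likeness is one of point values over 2 populations only.

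Gnai3 lies on the same chromosome as Tet2, 25.3 Mb away. In GMP 3.71% of 512 tested genes of chromosome 3 were called lower, against 2.22% of all tested genes. In MPP these shares were 0.739% of 541 genes against 0.27%. The window of 250 kb on each side of Gnai3 was examined after these values had been seen. Of 16 neighbouring genes tested there in GMP 2 were called, both lower (12.5%): Gstm1, a glutathione transferase gene, at -0.73 (SE 0.140, DESeq2 adjusted p = 4.14e-05), and Psma5, a proteasome subunit gene, at -0.25 (SE 0.0624, DESeq2 adjusted p = 0.00431), in the authors' deposited table. All 8 tested neighbours at lower coordinates had values below 0 in GMP, most of them Gstm genes, among which similar sequences may share reads. At higher coordinates 4 of 8 were below 0. In MPP none of 14 tested neighbours was called, and 5 of 7 at lower coordinates were below 0. Gstm1 had 0.08 (SE 0.114) in MPP in the authors' deposited table. Whether position plays a part in the value of Gnai3 was not tested.

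**Figure D5:**
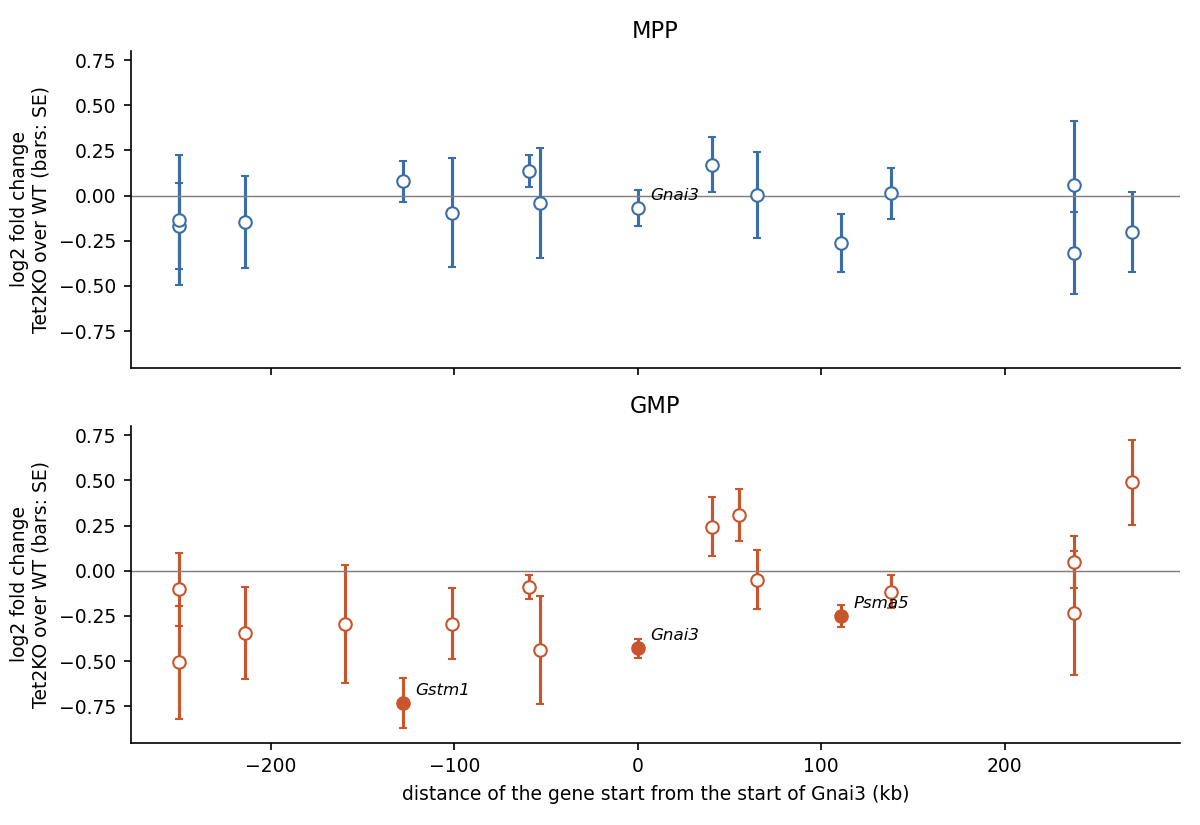
Log2 fold change of Tet2KO over WT (bars: SE) of tested genes within 250 kb of Gnai3 against the distance of their start from that of Gnai3, in MPP (top) and GMP (bottom), with filled points for called genes. In GMP Gnai3 (-0.43), Gstm1 (-0.73) and Psma5 (-0.25) were called, and in MPP no gene of the window was.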

How the data were processed

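From each mouse 2 ng of total RNA was amplified, and libraries were read from a single end over 75 bp, per the labels' protocols. STAR, DESeq2 and the build mm10 are named in the submitters' processing notes, without versions. How reads were counted, by which annotation and whether by strand is not given in the sources used here. In the tables, values are given per comparison. The authors' deposited tables hold, per gene, a mean normalized signal (counts scaled by DESeq2), a log2 fold change with its SE, a p-value and an adjusted p-value. Recomputation gave the deposited p-value as that of a normal test, two-sided, of log2 fold change divided by SE (within 0.0021 on the log10 scale), and the adjusted value as Benjamini-Hochberg over genes with the status OK. Small SEs at low means point to shrunken fold changes, so those of weak genes may be understated. Implied group means assume an unshrunken fold and 4 libraries per group. The depth of each library is unknown. The sums of means were 9436210 in MPP and 11033900 in GMP.

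Calls use an adjusted p under 0.05. The difference between populations is the difference of the log2 fold changes over the root of the summed squared SEs, over genes with status OK in both tables. Named genes are the 10 members, every called gene of the lists, the gene of highest mean in lists without a call, and the 5 genes nearest to Gnai3. Genes named beside these are there as context: Tet2, the sort markers, Nespas, Gng12, Cxcr4, E030024N20Rik, Cx3cr1, Rgs7, Plcb2, Gstm1 and Psma5, which were chosen with their values seen. Some markers of the sort check are not reported here. Members and lists were chosen with earlier results of these data known. The software was scipy 1.17.1, numpy 2.4.6, matplotlib 3.10.9 and pandas 2.3.3 under Python 3.11.15. Alternatives were recentring on the median, an empirical null, a minimum mean of 50, an adjusted p of 0.01, inclusion of outlier-marked genes, correlated errors, another gene length and a sum without the ribosomal RNA gene Rn45s.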

Additional observations from a re-analysis of the deposited data

How the results depend on the processing

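Under all 5 alternatives for the calls Gnai3 stayed called and lower in GMP, with an adjusted p of 3.01e-13 to 3.15e-06, and no other member was called in either table. Gnai3 was included because of this same value, so its kept call is a description and no separate evidence. Of the list genes, P2ry14 alone was called in MPP with the empirical null and at an adjusted p of 0.01 (1 gene, lower), where 17 and 36 of all genes were called in place of 73. In GMP the empirical null left 2, Rgs7bp higher (1) and P2ry14 lower (1), with 72 of all genes in place of 456, and an adjusted p of 0.01 left 6, 3 higher and 3 lower, with 198 of all genes. With errors correlated between the tables by 0.402, the correlation of both statistics across genes, 2 list genes (Ccr9 and Cx3cr1) differed between populations, and 84 of all genes in place of 7. That correlation mixes shared effects with shared errors. The ratio of Gnai2 to Gnai3 was 2.16 in MPP and 1.57 in GMP with the longest transcript. Without Rn45s, 6.71% of the sum in MPP and 9.06% in GMP, all levels of a table rise by one factor. No paired analysis was possible because the tables hold no values per library, and leaving out a replicate was not run for the same reason.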
